A study of Mus musculus with 9 samples.

Results

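The change in mouse embryonic orofacial tissue from gestation day (GD) 12 to GD14 was measured with oligonucleotide arrays that give 1 intensity, a linear brightness scaled between arrays by the authors, for each probe set. The comparison set the 3 arrays labelled GD-14 against the 3 labelled GD-12, which are 6 of the 9 arrays of the series. The other 3 arrays, from GD13, gave the middle value and shared in the estimate of the spread. All groups are total RNA of embryonic orofacial murine tissue, and the labels used here name no strain, sex, genotype, treatment, litter or pooling of embryos. Because nothing says that the arrays of a day came from separate litters, every p-value measures only the spread between these samples, which may be technical. Every probe set that was not a control of the array maker belonged to the comparison, and 9326 of 12422 were bright enough to be tested.

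Orofacial tissue of these days holds neural crest mesenchyme under an oral epithelium, with blood vessels, nerves, blood cells and the muscle precursors of the tongue and jaw. Over this period the palatal shelves grow beside the tongue and prepare to meet in the midline, membrane bones of the jaw and palate begin to mineralize, muscle fibres assemble their contractile proteins, and the first red cells, which come from the yolk sac, are replaced by red cells from the liver. The genes described below follow these tissues and the signals between them.

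Upstream sequences are shown for 4 genes picked from the groups described below, each with 1 listed start. They are Ibsp for bone, Acta1 for muscle, Hba-x for embryonic red cells and Sox11 for progenitor factors. Each is the 100 bases before the gene's start, written 5′ to 3′ along the gene's strand, from RefSeq on the mouse build GRCm38.p6. In Ibsp and Sox11 the capitals mark the dinucleotide CG, and in Acta1 and Hba-x they mark the letters TATAAA.
Ibsp (chr5:104299187-104299286, plus strand): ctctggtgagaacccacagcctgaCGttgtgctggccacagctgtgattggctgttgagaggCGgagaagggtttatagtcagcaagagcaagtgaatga
Sox11 (chr12:27342719-27342818, minus strand): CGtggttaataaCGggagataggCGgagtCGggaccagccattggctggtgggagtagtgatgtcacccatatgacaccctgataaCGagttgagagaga
Acta1 (chr8:123894776-123894875, minus strand): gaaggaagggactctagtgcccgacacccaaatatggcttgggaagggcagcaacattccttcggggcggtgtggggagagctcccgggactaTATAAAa
Hba-x (chr11:32276500-32276599, plus strand): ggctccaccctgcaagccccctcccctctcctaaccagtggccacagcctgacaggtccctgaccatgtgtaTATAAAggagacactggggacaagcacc
Over the 250 bases before the start, CG occurred 2 times for Ibsp, 17 times for Sox11, 9 times for Acta1 and 1 time for Hba-x, beside a median of 15.5 over the tested genes with an entry. TATAAA lay on the gene's strand within 50 bases before the start in 184 of 5509 tested genes with an entry (3.34%), and on the opposite strand in 44 (0.799%). An entry existed for 76.6% of the genes that rose and 76.1% of those that fell, beside 80.2% of all tested genes. The letters of the others are missing, and no test of promoter letters between the groups was run.

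The arrays were alike in scale, with medians of 47.15 to 56.95. Intact RNA gives actin control probes at the 3′ and the 5′ end like signals. Their ratio, 3′ over 5′, was 1.54 and 1.76 on the first and second GD12 arrays and 2.44 and 2.29 on those of GD14. It was 1.42 and 1.37 on the third arrays, so that it moved with the day on the first and second arrays only. Its part in the results was not tested beyond the fits given here with the ratio as a covariate and without the third arrays. The tissue label was checked against marker genes. All 10 tested markers of facial mesenchyme, among them Twist1, Pdgfra, Alx4 and Six2, and all 6 tested markers of oral epithelium, among them Cdh1, Trp63 and Epcam, lay above the filter intensity of 10.4 on all 9 arrays.

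Higher on GD14 were 8 of 17 tested genes of bone, 9 of 23 of matrix proteases and inhibitors and 12 of 34 of contractile muscle. So were 4 of 16 epithelial keratins, 9 of 33 genes of epithelial junctions and 13 of 35 of macrophages and other leukocytes. Over all tested genes 3.61% rose. All 3 embryonic globins, 3 of 44 neuronal and 3 of 13 progenitor genes were lower, beside 0.976% over all genes. On leaving out 1 array, the lowest counts of rises were 6, 5, 4, 4, 4 and 7 in the order given. The lowest counts of falls were 3, 0 and 2. With limma, 401 of the 9326 tested probe sets (4.3%) differed at an adjusted p under 0.05. Of these, 302 (3.24%) were higher and 99 (1.06%) were lower on GD14, and 271 (2.91%) differed at least 2-fold. In the 302 that rose the median fold was 2.52, and 71 changed at least 4-fold. In the 99 that fell the median fold was 1.95, and 5 changed at least 4-fold. The probe sets that rose had a median intensity of 63.0 on GD12 and 180 on GD14, and those that fell had medians of 218 and 92.2. Medians of whole arrays, untested probe sets included, were 47.15 to 56.95. Choosing probe sets by their difference between the days in part sets such a contrast. Taking the brightest tested probe set for each gene, 248 of 6868 genes rose (3.61%) and 67 fell (0.976%), and the median log2 difference over all genes was -0.0056. The counts of every list below stand beside these 2 shares, and a list with few calls can lie near them. All 71 lists were written with earlier results of these data known. Their counts, those above included, are therefore a description and no test, and a gene can count in several lists. Folds and log2 differences are on the scale of log2(intensity + 3), and no fold is given where the lower day's mean lay under 10.4. GD12 and GD14 values did not overlap in 22.3% of all tested probe sets, so a lack of overlap alone was common. The plot of change against level shows both groups.

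**Figure D1:**
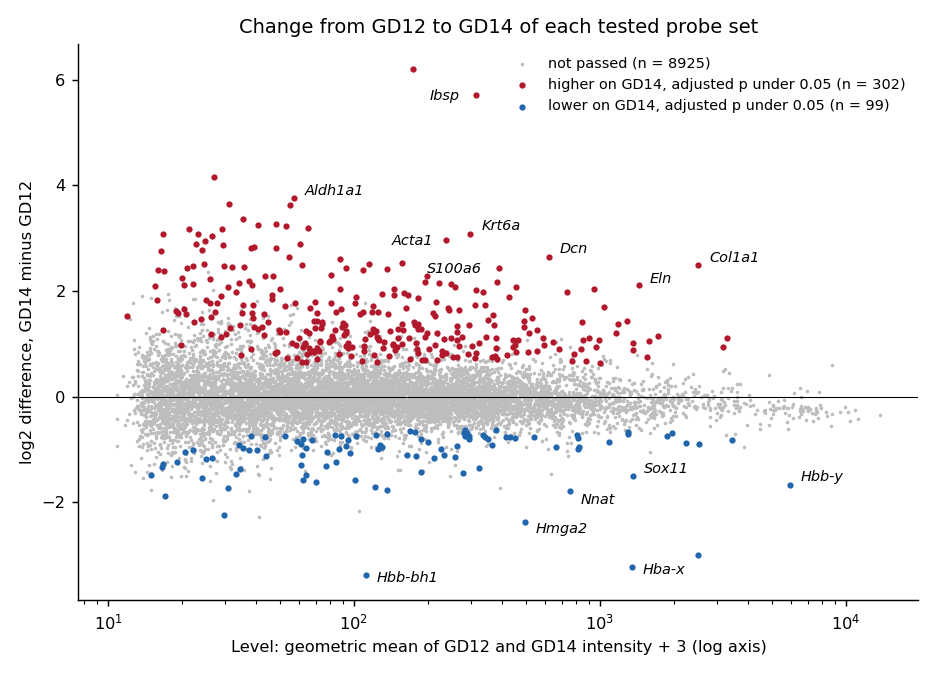
Each point is 1 of the 9326 tested probe sets, with its level (geometric mean of the GD12 and GD14 intensity plus 3, log axis) against its log2 difference GD14 minus GD12. The 302 red points rose and the 99 blue points fell at an adjusted p under 0.05, Ibsp lies at a log2 difference of 5.71, a single point above it has no gene symbol, and labels stand at the brightest probe set of a gene.

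The count of 401 depended on single arrays. It was 176 without the first GD14 array, 213 without the second GD14 array and 225 without the first GD12 array, and higher probe sets then numbered 145, 172 and 193. Lower probe sets numbered between 31 and 62 on leaving out the first GD14 array (31), the first GD12 array (32), the second GD12 array (34), the second GD14 array (41) or the third GD12 array (62). With the replicate number as a block the counts were 620 in all, 427 higher and 193 lower, and 387 of the 401 passed again. Of the probe sets that rose, 141 of 302 passed without each array in turn, and of those that fell, 19 of 99. Without the third arrays of the days 311 passed, of which 203 were among the 401, and with the actin ratio as a covariate 425 passed, of which 331 were among the 401. In gene lists the brightest probe set stands for a gene, and for 16 list genes only a dimmer one passed (9 higher, 7 lower). They were chosen for this after their values were seen: Col13a1, Col3a1, H2-D1, Hoxd8, Krt13, Laptm5, Pkp1, Tapbp and Thbd were higher, and Bub1, Cbx5, Cdc25c, Fzd3, Napb, Six4 and Tbx2 lower. Among genes named below with a probe set that passed, other tested probe sets differed in the same direction without passing for Bgn, Cbx2, Col6a1, Foxc2, Mef2c, Ptbp2 and Rprm. Further named genes, among them Col1a2, Lox, Mmp9 and Lamb3, also had a tested probe set that did not pass. Those are given with the gene. Without the third array of every day the count of rises was 4 in place of 9 for epithelial junctions, 2 in place of 4 for collagen enzymes, 3 in place of 8 for lysosomal genes and 1 in place of 5 for complement and coagulation. It was 3 in place of 5 for interferon response, 5 in place of 8 for stress response, 2 in place of 4 for retinoid genes and 1 in place of 4 for carbonic anhydrases and transport subunits. Where the call of a gene named below ended without 1 array, that array is named.

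Mineralizing bone showed the largest rise of a named gene. Ibsp encodes bone sialoprotein, a secreted protein of mineralizing matrix. Its intensity was 50.3, 44.3 and 26.5 on GD12 and 2732, 2507 and 1566 on GD14, a 52.5-fold rise (log2 difference 5.71 ± 0.30 SE, adjusted p = 5.88e-05). The GD14 values lay far above those of GD12, and a dimmer probe set of the gene differed by 1.23 (adjusted p = 0.0126). In bulk tissue, more cells of a type and more RNA per cell cannot be told apart, here or in any group below. Alpl, the alkaline phosphatase of mineralizing tissue, read 121, 138 and 109 on GD12 and 560, 511 and 500 on GD14. All its GD14 values were above its GD12 values, and the rise was 4.21-fold (log2 2.08 ± 0.15 SE, adjusted p = 0.000215). Dmp1, an acidic protein of bone and dentin, read 0.9, 5.2 and 4.2 on GD12, at or under the filter intensity, and 148, 116 and 69.0 on GD14 (adjusted p = 0.000472). Of the 17 tested genes of bone and osteoblasts, 8 rose and 0 fell, with a median log2 difference of 1.10 beside -0.0056 over all genes. Sparc, or osteonectin, rose 4.10-fold (adjusted p = 0.0244), with its highest intensity on the first array of each day and its lowest on the third array (616, 473 and 289 on GD12, 2586, 2119 and 1077 on GD14). Its call ended without the second or the third GD12 array or the first or second GD14 array, with adjusted p-values from 0.0634 to 0.0949.

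Several collagen chains rose as well. Col1a1, which encodes a chain of type I collagen, the main fibre of bone and connective tissue, read 1158, 1175 and 860 on GD12 and 6321, 5541 and 5904 on GD14. The days did not overlap, and the rise was 5.6-fold (log2 2.49 ± 0.20 SE, adjusted p = 0.000324). Its partner chain Col1a2 rose 2.15-fold from a higher start, from 2240 ± 274 to 4801 ± 257 (SD, n = 3 each, adjusted p = 0.00638), although a dimmer probe set of Col1a2 differed by 0.14 (adjusted p = 0.791). Of 15 tested collagen genes 6 rose and 0 fell, and 14 had a log2 difference above 0 (median 0.87). The others that rose were Col5a2 (2.07-fold), which joins type I fibrils, and the chains of the beaded filament collagen VI, Col6a1 (1.91-fold), Col6a2 (2.83-fold) and Col6a3 (2.59-fold). Their adjusted p-values were 0.00482, 0.0170, 0.00423 and 0.00343. The call of Col6a1 ended without the second or the third GD12 array or the first or second GD14 array, at adjusted p-values of 0.0522 to 0.0622. Col3a1, a marker of mesenchyme and the chain of type III collagen, did not pass on its brightest probe set (log2 0.64, adjusted p = 0.227), while a dimmer one passed (log2 0.78, adjusted p = 0.0473) and another did not (log2 0.67, adjusted p = 0.235).

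The small leucine-rich proteoglycans, which coat collagen fibrils and set their spacing, had the highest median of all the lists examined. Decorin, the product of Dcn, read 288, 220 and 233 on GD12 and 1670, 1482 and 1497 on GD14. Its lowest GD14 value was far above its highest GD12 value, and the rise was 6.25-fold (log2 2.64 ± 0.16 SE, adjusted p = 7.53e-05). Ogn, which encodes osteoglycin, read 206, 229 and 220 on GD12 and 830, 737 and 876 on GD14, without overlap (3.69-fold, log2 1.88 ± 0.14 SE, adjusted p = 0.000232). Lum, or lumican, rose 2.31-fold (adjusted p = 0.00373), and Bgn, or biglycan, 2.70-fold (adjusted p = 0.00505). Fmod, or fibromodulin, rose from 6.60 ± 1.01, under the filter intensity, to 84.8 ± 17.5 (SD, n = 3 each, adjusted p = 0.000294). In all, 5 of 8 tested members rose, 0 fell, and the median log2 difference was 1.54.

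Some enzymes that modify and cross-link collagen also rose. Lox, lysyl oxidase, which cross-links collagen and elastin, read 186, 175 and 135 on GD12 and 782, 668 and 550 on GD14. The days were well apart (3.98-fold, log2 1.99 ± 0.20 SE, adjusted p = 0.0011), but a dim second probe set of Lox differed by 0.33 (adjusted p = 0.816). Crtap, of the prolyl 3-hydroxylation complex, rose 2.17-fold (adjusted p = 0.00633), and the prolyl 4-hydroxylase subunits P4ha1 and P4ha2 rose 1.94-fold and 1.78-fold (adjusted p = 0.0131 and 0.0283). Of 14 tested members 4 rose and 0 fell, and all 14 had a log2 difference above 0 (median 0.53). The count was 2 without the first GD12 or the first GD14 array. P4ha1 was lost without the first GD12 array (adjusted p = 0.0579) or the first GD14 array (0.0622), and P4ha2 without any 1 of the 6 arrays (0.0549 to 0.0919). Kdelr3, a receptor that returns escaped proteins to the endoplasmic reticulum, was the only riser of 43 tested genes of the secretory pathway. It rose 4.20-fold, from 223, 272 and 169 to 932, 911 and 918 (adjusted p = 0.000579). With the replicate block 6 of the 43 rose.

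Elastic fibre genes included 1 large rise. Eln, which encodes elastin, read 783, 854 and 459 on GD12 and 3072, 3225 and 2568 on GD14, so that the third array of each day was its lowest. The rise was 4.35-fold (log2 2.12 ± 0.24 SE, adjusted p = 0.00201). Thbs2, thrombospondin 2, a matricellular protein, rose 4.49-fold, from 87.8 ± 17.5 to 417 ± 148 (SD, n = 3 each, adjusted p = 0.00277). Ltbp4, a latent TGF-beta binding protein of elastic fibres, rose 2.56-fold (adjusted p = 0.00425). With Sparc, 4 of 21 tested members rose and 0 fell (median log2 0.37).

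Some proteases of the matrix rose as well. Of 23 tested proteases and inhibitors 9 rose and 0 fell, and 22 had a log2 difference above 0 (median 0.62). The count was 5 without the first GD12, the third GD12, the first GD14 or the second GD14 array. Mmp13, a collagenase of bone and cartilage, read 1.2, 9.8 and 7.0 on GD12, under the filter intensity, and 133, 114 and 62.9 on GD14 (adjusted p = 0.00423). Mmp9, gelatinase B, read 16.3, 32.7 and 11.2 on GD12 and 161, 163 and 143 on GD14, and its days were far apart (7.42-fold, adjusted p = 0.00264), although a dim second probe set differed by 0.38 (adjusted p = 0.632). Htra1, a secreted serine protease, rose 4.11-fold, from 68.5 ± 10 to 291 ± 42.0 (SD, n = 3 each, adjusted p = 0.000349). Ctsk, cathepsin K, the collagen-degrading protease of osteoclasts, read 134, 145 and 127 on GD12 and 460, 434 and 396 on GD14 (3.13-fold, adjusted p = 0.000471). The lowest GD14 value of Ctsk was above its highest GD12 value. With Acp5, the tartrate-resistant acid phosphatase that marks osteoclasts (3.29-fold, adjusted p = 0.0068), Mmp9 and Ctsk were the 3 of 10 tested osteoclast genes that rose, and 0 fell. Summed intensity of the osteoclast genes was 567 to 687 on GD12 and 1117 to 1212 on GD14.

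Among cartilage genes, the type XI collagen genes Col11a1 and Col11a2 and 1 growth plate signal rose. Col11a1, a chain of type XI collagen, rose 2.71-fold, from 296 ± 38.5 to 810 ± 135 (SD, n = 3 each, adjusted p = 0.00317). Col11a2, its partner, read 30.3, 13.0 and 5.6 on GD12 and 137, 145 and 73.2 on GD14 (7.01-fold, adjusted p = 0.0124), and its call ended without the first or second GD14 array (adjusted p = 0.0598 and 0.0522). Ihh, the hedgehog signal of the growth plate, rose 2.25-fold from a low level, from 26 ± 5.35 to 61.5 ± 2.40 (SD, n = 3 each, adjusted p = 0.00568). These were 3 of 14 tested members, 0 fell, and the median log2 difference of 0.48 lay between -0.06 and 0.69 over the alternatives in processing. Within replicate numbers it was 0.91, 0.80 and 0.02.

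**Figure D2:**
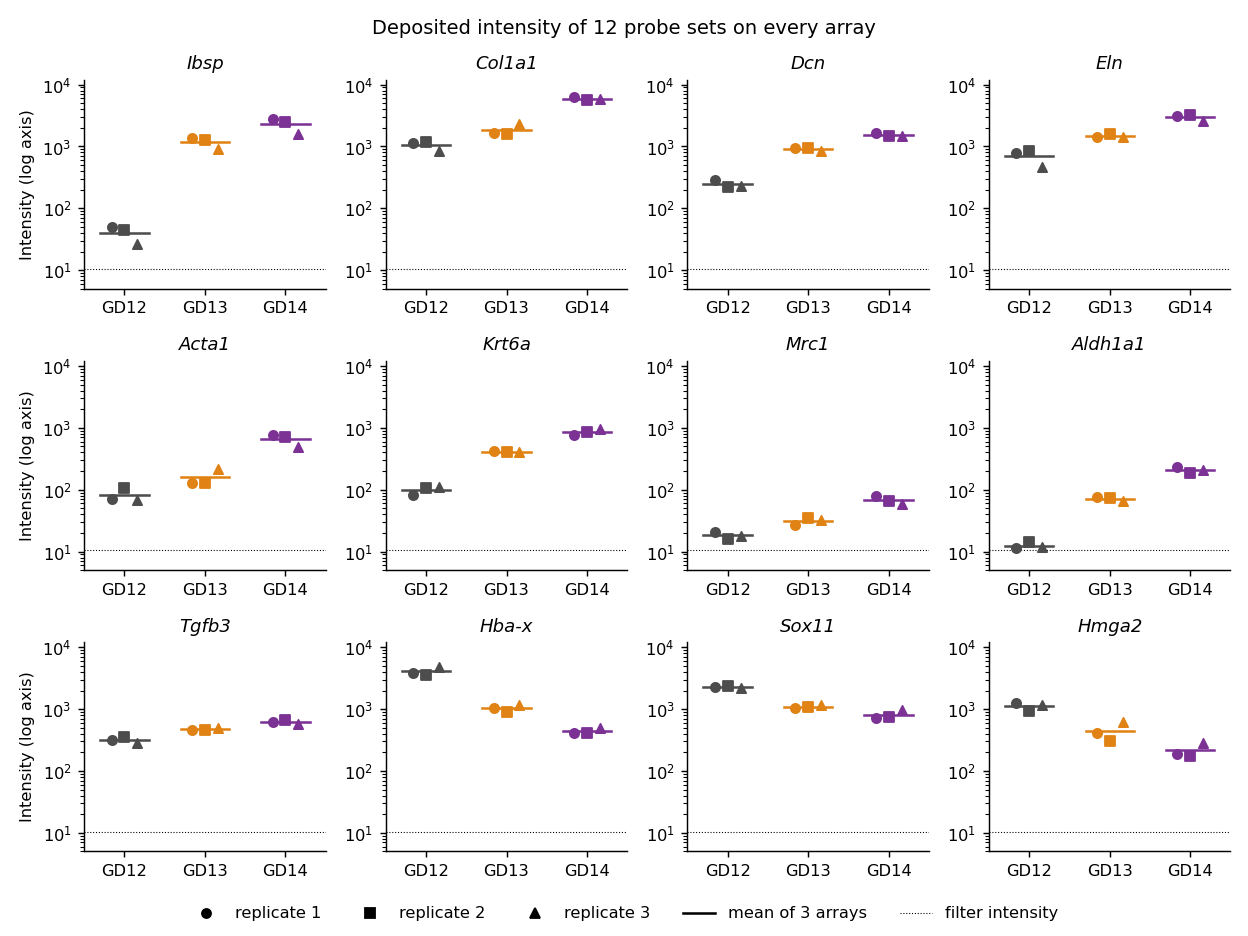
Points give the deposited intensity (log axis) of 12 probe sets on each of the 9 arrays by day, with the replicate number as the symbol, the mean of a day as a line and the filter intensity of 10.4 dotted. The 12 probe sets were chosen among those that passed. Their GD12 and GD14 values do not overlap, as in 22.3% of all tested probe sets. The 9 rising genes span GD12 means from 12.4 (Aldh1a1) to 1064 (Col1a1).

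Part of the genes of the contractile filaments of skeletal muscle rose (12 of 34 tested), led by Acta1, while 1 of the 18 tested genes that specify muscle cells passed. Acta1, skeletal muscle actin, read 70.9, 106 and 66.9 on GD12 and 766, 715 and 488 on GD14. There was no overlap, and the rise was 7.83-fold (log2 2.97 ± 0.28 SE, adjusted p = 0.000813). The myosin light chains Myl1, of fast fibres, and Myl4, of embryonic muscle, rose 3.13-fold and 3.65-fold (adjusted p = 0.00308 and 0.00772), although a second probe set of Myl4 differed by 0.06 (adjusted p = 0.921). Tnnt3, fast troponin T, rose 3.42-fold from a low level (11.6 ± 0.757 to 49.6 ± 20.0, SD, n = 3 each, adjusted p = 0.00871). Of 34 tested contractile genes 12 rose and 0 fell, 30 had a log2 difference above 0, and the median was 1.02. Their summed intensity was 3585 to 4310 on GD12 and 6673 to 8724 on GD14. The count was 7 without the first GD12 array, 5 without the third GD12 array and 4 without the first or the second GD14 array. For these genes the third GD14 array often gave the lowest value of its day, as it did for Acta1, Myl1, Myl4 and Tnnt3. Mybph, a myosin binding protein, rose 2.15-fold (adjusted p = 0.0141), and lost its call without the first (adjusted p = 0.0622) or second (0.0561) GD14 array.

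Outside the filaments, Cox6a2, the muscle form of a subunit of cytochrome oxidase, was the only 1 of 61 tested respiratory chain genes that passed. It read 12.1, 15.3 and 10.4 on GD12 and 91.4, 90.8 and 33.8 on GD14 (4.45-fold, adjusted p = 0.0256), and only the third GD14 array kept its call when left out, since adjusted p-values were 0.058 to 0.103 without each of the others. The median of the respiratory chain was -0.03. Mef2c, a transcription factor of muscle and of the jaw's endothelin pathway, was the only 1 of 18 tested myogenic regulators to pass (2.39-fold, adjusted p = 0.0337). Its GD14 values were 88.3, 92.1 and 44.5, and its call ended without any array but the third GD14 array (adjusted p = 0.0667 to 0.128). Dimmer probe sets of Mef2c had log2 differences of 0.20 to 1.16 that did not pass. Of 9 receptors of the neuromuscular junction 0 passed in limma, where 2 had an unadjusted p under 0.05 (median 0.30). In smooth muscle and pericytes, Acta2, smooth muscle actin, read 148, 120 and 121 on GD12 and 549, 430 and 317 on GD14 (3.21-fold, adjusted p = 0.00482), without overlap. Tagln, an actin-binding protein of smooth muscle, rose 2.27-fold (adjusted p = 0.00805). They were 2 of 14 tested members of that list, of which 0 fell.

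Of 16 tested epithelial keratins 4 rose. Krt6a, a keratin of stratified and activated epithelium, read 81.2, 105 and 111 on GD12 and 778, 865 and 944 on GD14. The lowest GD14 value was far above the highest GD12 value, and the rise was 8.52-fold (log2 3.09 ± 0.16 SE, adjusted p = 5.88e-05). Krt17, often expressed with Krt6a, read 77.7, 90.3 and 93.3 on GD12 and 382, 452 and 473 on GD14 (4.86-fold, adjusted p = 0.000162). A second probe set of Krt17 rose 3.48-fold (adjusted p = 0.0114) and a dim one differed by 0.70 (adjusted p = 0.445). Krt19 rose 9.15-fold, from 20.0 ± 12.5 to 180 ± 11.5, and Krt8, a keratin of simple epithelium and periderm, 2.31-fold, from 127 ± 15.6 to 298 ± 42.8 (SD, n = 3 each, adjusted p = 0.00482 and 0.00618). Of the 16 keratins 0 fell (median log2 0.52), and 6 had a log2 difference below 0.

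Some genes of epithelial junctions and epithelial identity rose beside the keratins. Of 33 tested members 9 rose, 0 fell and 27 had a log2 difference above 0 (median 0.80). The count was 5 without the first GD12 or the second GD14 array and 4 without the first GD14 array. Col17a1, a transmembrane collagen of the hemidesmosomes that anchor basal cells, read 55.5, 61.3 and 76.6 on GD12 and 168, 176 and 277 on GD14. The days did not overlap (3.06-fold, log2 1.61 ± 0.22 SE, adjusted p = 0.00482). Lamb3, a chain of the laminin to which hemidesmosomes bind, read 6.9, 10.5 and 6.0 on GD12, about the filter intensity, and 81.1, 57.0 and 90.3 on GD14 (adjusted p = 0.000324), whereas a second dim probe set of Lamb3 differed by 0.42 (adjusted p = 0.451). Lgals7, a galectin of stratified epithelium, read 7.9, 5.4 and 5.1 on GD12 and 88.2, 51.0 and 82.2 on GD14 (adjusted p = 0.00301). Both started under or near the filter and had no overlap between the days. The desmosomal cadherin Dsc2 rose 2.49-fold (adjusted p = 0.0115), Jup, plakoglobin of desmosomes and adherens junctions, 1.94-fold (adjusted p = 0.0105), and Anxa8, an annexin of epithelia, 4.10-fold, from 41.1 ± 12.4 to 173 ± 1.79 (SD, n = 3 each, adjusted p = 0.00264). The call of Jup ended without the first GD14 array (adjusted p = 0.0518). Cdh1, the cadherin that defines epithelium, had a mean intensity of 170 on GD12 and 171 on GD14 (adjusted p = 0.978), and Trp63, the factor of basal epithelial cells, had 117 and 101 (adjusted p = 0.546).

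A few basement membrane and surface differentiation genes rose. Of 20 tested basement membrane genes 3 rose, Lamb3, Sparc and Smoc2, a calcium-binding matrix protein (2.17-fold, adjusted p = 0.00718), and 0 fell (median 0.30). Of 12 tested genes of epidermal cornification, 1 rose. It was Krtdap, a protein of keratinocyte differentiation, at 50.5, 21.3 and 54.6 on GD12 and 155, 120 and 151 on GD14 (3.42-fold, adjusted p = 0.0141), and its call ended without the first GD14 array (adjusted p = 0.0649). Ly6d, a surface protein of stratified epithelium, rose 6.22-fold, from 7.8, 17.6 and 34.8 to 101, 135 and 138 (adjusted p = 0.0141), and lost its call without the second GD14 array (adjusted p = 0.0575). Wfdc2, a secreted protein of glands and airways, was the only 1 of 7 tested genes of exocrine glands to pass (1.90-fold, adjusted p = 0.0312). That call held only without the second GD14 array, and adjusted p-values were 0.067 to 0.101 without each of the others.

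Globin genes changed in both directions. They are the embryonic globins, made by red cells of the yolk sac, and the adult-type globins, made by red cells of the liver. Hba-x, the embryonic alpha-like chain, read 3903, 3611 and 4831 on GD12 and 415, 410 and 494 on GD14, with 1050, 903 and 1162 on GD13. Each day lay wholly below the day before, and from GD12 to GD14 the fall was 9.27-fold (log2 -3.21 ± 0.18 SE, adjusted p = 5.88e-05). Hbb-bh1, an embryonic beta-like chain, read 369, 286 and 368 on GD12 and 58.0, 23 and 19.8 on GD14, the largest fall among named genes (10.3-fold, log2 -3.37 ± 0.38 SE, adjusted p = 0.00212). Hbb-y, the other embryonic beta-like chain, read 6752, 6503 and 7730 on GD12 and 875, 733 and 1059 on GD14 on 1 probe set (7.91-fold lower, adjusted p = 0.000106), and fell 3.17-fold on a brighter one (adjusted p = 0.000918). The brighter probe set read 9897, 9326 and 12412 on GD12 and 3402, 3013 and 3497 on GD14, also without overlap. All 3 embryonic globins fell on every fit with 1 array left out.

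Of the adult-type globins 1 rose and the other did not pass. Hbb-b2, an adult beta chain, read 2443, 2319 and 2117 on GD12 and 4438, 4144 and 4565 on GD14 (1.91-fold, log2 0.93 ± 0.15 SE, adjusted p = 0.0106), and its call ended without the first GD14 array (adjusted p = 0.0513). Its GD13 values of 4800, 4622 and 3784 already lay at the GD14 level. Hba-a1, an adult alpha chain, read 7004, 6840 and 8769 on GD12 and 7555, 6899 and 9675 on GD14, values that overlapped (log2 0.09 ± 0.18 SE, adjusted p = 0.860). Probes of globin genes of 1 cluster can share sequence, so related chains may contribute to each other's signal. Of 26 tested erythroid genes other than globins 1 rose, Aqp1, and 1 fell, Mllt3 (3 and 2 with the replicate block), and their summed intensity was 3822 to 4274 on GD12 and 3700 to 4017 on GD14. Aqp1, a water channel of red cells and of small vessels, read 21.7, 16.5 and 3.0 on GD12 and 121, 118 and 170 on GD14 (9.66-fold, adjusted p = 0.00568), but a second probe set differed by 0.80 (adjusted p = 0.644). Mllt3, a chromatin reader of blood stem cells, fell 1.70-fold (adjusted p = 0.0173), and its call ended without the first or second array of either day (adjusted p = 0.058 to 0.0766).
Part of the macrophage genes rose. Of 35 tested genes of macrophages and other leukocytes 13 rose and 0 fell, 32 had a log2 difference above 0, and the median was 0.81. Their summed intensity was 1565 to 1677 on GD12 and 2810 to 3142 on GD14, and 2 members lay under the filter intensity on all GD12 arrays. The count was 7 without the first or the second GD14 array and 6 without the third array of every day. Mrc1, the mannose receptor of tissue macrophages, read 20.8, 15.9 and 18.1 on GD12 and 79.0, 66.8 and 58.5 on GD14. The days were well separated (3.33-fold, log2 1.74 ± 0.18 SE, adjusted p = 0.0011). Ctss, cathepsin S, a protease of antigen-presenting cells, read 97.0, 73.8 and 61.7 on GD12 and 219, 248 and 230 on GD14 (2.97-fold, adjusted p = 0.00423), without overlap. Tyrobp, an adaptor of myeloid receptors, rose 2.71-fold (adjusted p = 0.00981). Ccl9, a chemokine, read 7.6, 5.6 and 6.0 on GD12, under the filter, and 59.4, 45.0 and 43.2 on GD14 (adjusted p = 0.000324).

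The complement component C1q, which macrophages secrete, rose in all 3 of its chains. C1qa read 66.7, 83.4 and 80.3 on GD12 and 195, 168 and 196 on GD14 (2.38-fold, adjusted p = 0.00794). C1qb rose 2.45-fold (adjusted p = 0.00968) and C1qc 1.82-fold (adjusted p = 0.0256). The GD12 and GD14 values of each chain were apart, but the C1qc call held only without the third GD12 array (adjusted p = 0.0542 to 0.0873 without each of the others), and a second probe set of C1qb stood at 47.6 and 48.9 (adjusted p = 0.998). With C1ra, a serine protease of the complement cascade (2.0-fold, adjusted p = 0.0312), and F3, tissue factor of the coagulation cascade (2.09-fold, adjusted p = 0.0172), 5 of 24 tested complement and coagulation genes rose and 0 fell. That count was 2 without the first GD12 or first GD14 array and 3 without the second or the third GD12 or the second GD14 array. The C1ra call held only without the third GD14 array (0.0517 to 0.107 without each of the others), where a dimmer probe set of C1ra differed by 0.80 without passing (adjusted p = 0.374). F3 was lost without the first GD12 (0.0673), the third GD12 (0.0528) or the first GD14 array (0.0761).

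Some lysosomal and antigen presentation genes rose as well. Of 34 tested lysosomal genes 8 rose, 0 fell and 31 had a log2 difference above 0 (median 0.47), but the count was 2 or 3 without any 1 of the 6 arrays. Ctsc, cathepsin C, rose 2.66-fold, from 27.1, 21.7 and 24.3 to 79.2, 78.8 and 53.7 (adjusted p = 0.00425), and its call held on every omission. Of 26 tested genes of interferon response and antigen presentation 5 rose and 0 fell (median 0.62), and the count was 3 without the first GD12 array or the first or second GD14 array. Ifi27 read 93.3, 93.6 and 95.6 on GD12 and 214, 209 and 279 on GD14 (2.42-fold, adjusted p = 0.00313). Its GD12 values lay close to each other and well under all GD14 values. Ifitm3, a membrane protein that restricts virus entry, rose 1.96-fold (adjusted p = 0.00624) and Ly6e 2.05-fold (adjusted p = 0.00889). Cd74, the invariant chain of antigen presentation, rose 1.63-fold (adjusted p = 0.0336), and that call ended without any 1 of the arrays (adjusted p = 0.0622 to 0.113).

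Of 15 tested genes of mast cells and granulocytes 2 rose and 0 fell, while 8 had a log2 difference above 0 and 7 below. The median was 0.06, between -0.14 and 0.27 over the alternatives. Cma1, mast cell chymase, read 7.3, 3.7 and 1.7 on GD12, under the filter, and 58.3, 59.9 and 60.2 on GD14, with 28.3, 26.4 and 27.2 on GD13 (adjusted p = 0.000324). The values of the 3 days did not overlap, and 2 other probe sets of Cma1 were too dim to test. Hdc, the enzyme that makes histamine, rose 5.49-fold, from 10.4, 22.6 and 5.1 to 102, 83.3 and 47.7 (adjusted p = 0.0192). The Hdc call ended without the first GD12 (0.0648), the third GD12 (0.0528), the first GD14 (0.0824) or second GD14 array (0.071). Among 24 tested endothelial genes 3 rose and 0 fell (median 0.27), and only 1 rose without the first GD12, first GD14 or second GD14 array. Lyve1, a hyaluronan receptor of lymphatic endothelium and of some macrophages, read 6.6, 2.3 and 1.5 on GD12 and 30.7, 47.4 and 38.6 on GD14 (adjusted p = 0.00228). Stab1, a scavenger receptor of sinusoidal endothelium and macrophages, rose 1.81-fold (adjusted p = 0.0137), and its call ended without the first GD12 array or the first or second GD14 array (0.0574 to 0.0649). Klf4, a factor of endothelium and of stratified epithelium, rose 1.77-fold (adjusted p = 0.0399), but passed only without the third GD14 array (0.0681 to 0.135 without each of the others) and not with the replicate block (0.0532). Summed endothelial intensity was 2732 to 2850 on GD12 and 3497 to 3551 on GD14.

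**Figure D3:**
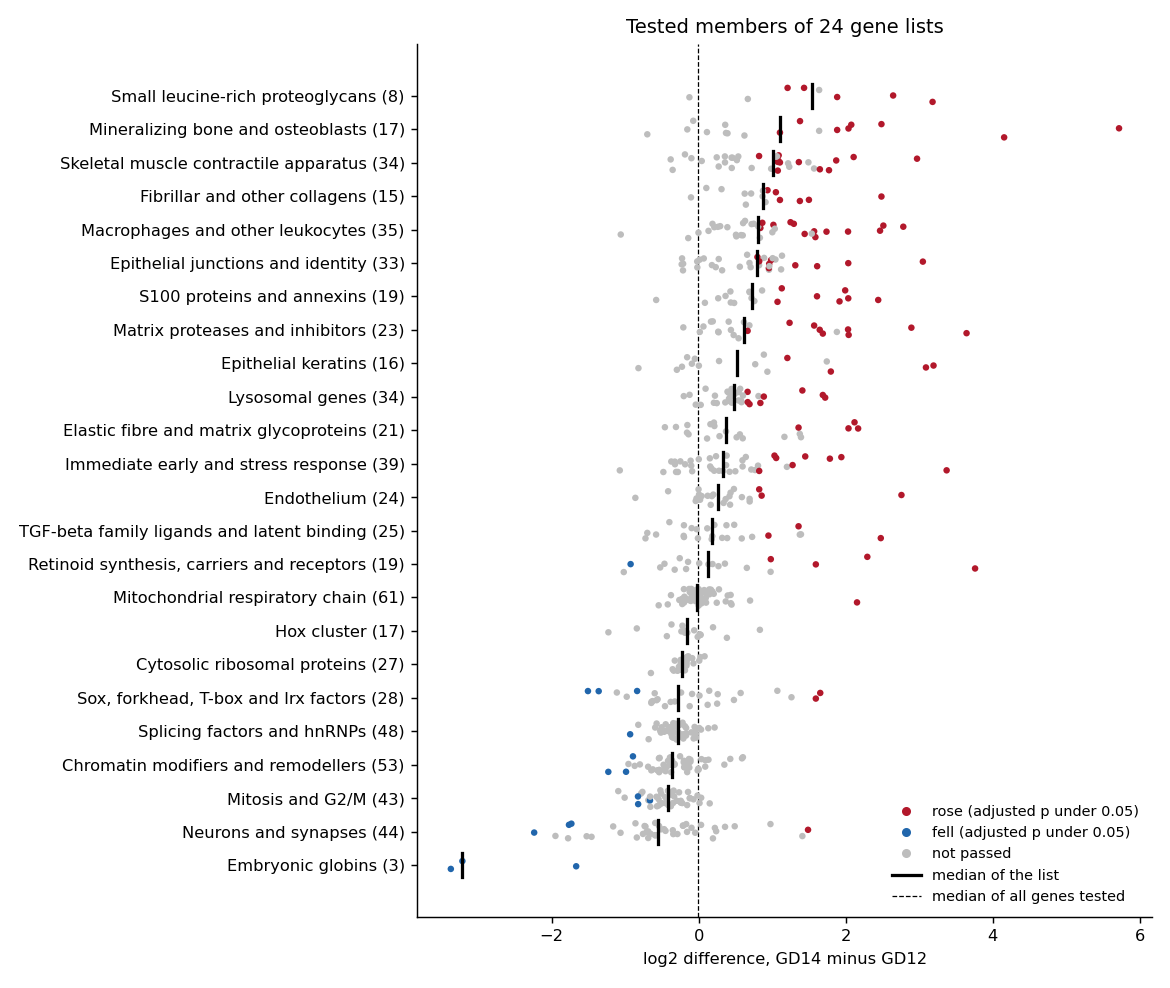
Each row is 1 of 24 gene lists with the number of tested members in brackets, each point is the log2 difference GD14 minus GD12 of 1 member, red where it rose and blue where it fell, and the black bar is the list's median. Medians run from 1.54 for the small leucine-rich proteoglycans to -3.21 for the embryonic globins, around a median of -0.0056 over all genes (dashed).

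A few neuronal genes fell. Of 44 tested genes of neurons and synapses 3 fell and 1 rose, and 35 had a log2 difference below 0 (median -0.55). Summed intensity was 3812 to 6465 on GD12 and 3086 to 4091 on GD14, so that the ranges overlapped. Mapt, the axonal protein tau, read 322, 329 and 121 on GD12 and 84.5, 65.3 and 54.4 on GD14 (3.39-fold lower, adjusted p = 0.0320). Its value on the third GD12 array was well under the others of that day, and other probe sets of Mapt had log2 differences of -0.96 and -0.28 that did not pass. Myt1, a zinc finger factor of newborn neurons, fell 3.32-fold (adjusted p = 0.0473), and Ppp1r17, a phosphatase inhibitor of neurons, 4.71-fold, from 71.6, 53.3 and 43.8 to 4.7, 5.6 and 25.4 (adjusted p = 0.0312). Falls in the list numbered 0 without the first or second array of either day and 1 without the third GD14 array, 4 without the third GD12 array or with the replicate block, and 6 without the third array of every day. Of single omissions, the calls of Mapt and Myt1 held only without the third GD12 array and that of Ppp1r17 only without the third GD14 array (adjusted p = 0.0616 to 0.15 without each of the others). With the replicate block Myt1 (adjusted p = 0.0621) and Ppp1r17 (0.0528) did not pass. Vsnl1, a neuronal calcium sensor, was the member that rose (2.80-fold, adjusted p = 0.0041), from 20.3 ± 2.53 to 62.2 ± 6.27 (SD, n = 3 each), without overlap.

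Lists of other cells of the nerves and the neural crest, and of axon guidance, held 1 or 2 calls each. Of Schwann cell and glial genes 6.67% rose and of axon guidance genes 5.71%, beside 3.61% of all genes. Of melanocyte genes 14.3% fell, beside 0.976% of all genes. Of 15 tested genes of Schwann cells and glia, 1 rose, Aldoc, an aldolase of astrocytes (1.91-fold, adjusted p = 0.0496). It passed only without the third GD12 array (0.0838 to 0.159 without each of the others), and did not pass with the replicate block (0.0556). With the block 3 other members of the list rose and 1 fell. Of 7 tested melanocyte genes, 1 fell, Ednrb, the endothelin B receptor of melanocyte and enteric nerve precursors, from 23.6, 26.6 and 18.2 to 4.7, 11.7 and 7.4 (adjusted p = 0.0337). That call held only without the second GD14 array (0.0536 to 0.112 without each of the others). Of 35 tested axon guidance genes 2 rose, 0 fell and 23 had a log2 difference below 0 (median -0.19). Sema3e, a semaphorin that repels vessels and axons, rose 4.36-fold, from 27.9, 10.8 and 9.7 to 64.5, 68.0 and 90.7 (adjusted p = 0.00845). Sema3b, another secreted semaphorin, read 4.6, 4.8 and 7.5 on GD12 and 74.2, 23.1 and 45.6 on GD14 (adjusted p = 0.0247), and kept its call only without the second GD14 array (0.0549 to 0.091 without each of the others).

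TGF-beta signals guide growth and fusion of the palate, and Tgfb1 and Tgfb3 of their ligands rose. Tgfb3, the ligand of the fusing palatal edge, read 312, 352 and 286 on GD12 and 609, 657 and 572 on GD14. The days did not overlap (1.93-fold, log2 0.95 ± 0.14 SE, adjusted p = 0.00805). Tgfb1 read 13.5, 13.3 and 3.2 on GD12 and 75, 49.1 and 67.7 on GD14, with 9.5, 7.8 and 7.8 on GD13 (adjusted p = 0.00668). Its GD12 and GD13 values lay around the filter intensity, and its GD14 values well above it. Tgfb2 read 75.5, 117 and 54.9 on GD12 and 49.3, 53.5 and 37.9 on GD14 (log2 -0.72 ± 0.29 SE, adjusted p = 0.239). With Ltbp4, Tgfb1 and Tgfb3 were the 3 of 25 tested ligands and latent binding proteins that rose, and 0 fell. Of 23 tested receptors and SMAD proteins 0 passed in limma, where 4 had an unadjusted p under 0.05, and 17 had a log2 difference below 0 (median -0.22). With the replicate block, or without the third GD14 array, 1 receptor or SMAD gene fell.

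The WNT, FGF and hedgehog lists each held 1 to 3 calls. Rises made up 5.26%, 7.69% and 8.33% of their tested genes, beside 3.61% of all genes. Counts this small do not set a list apart. Of 38 tested WNT genes 2 rose and 1 fell (median -0.06, between -0.21 and 0.08 over the alternatives), and the receptor Fzd3 passed on a dimmer probe set (log2 -0.96, adjusted p = 0.0418) but not on its brightest (log2 -0.26). Dkk1, a secreted WNT antagonist of head development, read 33.9, 46.2 and 38.8 on GD12 and 108, 142 and 91.8 on GD14 (2.71-fold, adjusted p = 0.0108), without overlap and with its call kept on every omission. Its relative Dkk2 rose 1.78-fold (adjusted p = 0.0435) but passed only without the second GD12 array (0.0549 to 0.147 without each of the others) and not with the replicate block (0.0555). Rspo2, a secreted WNT agonist, fell 2.98-fold, from 95.6, 72.5 and 141 to 26.9, 51.4 and 21.9 (adjusted p = 0.0311), and its call ended without the first or the third GD12 array or the first or the third GD14 array (0.0764 to 0.118) and with the block (0.0531). Of 13 tested FGF genes 1 rose and 1 fell. Dusp6, a phosphatase that FGF signals induce and that dampens them, read 917, 1006 and 842 on GD12 and 520, 453 and 448 on GD14 (1.94-fold lower, log2 -0.96 ± 0.14 SE, adjusted p = 0.00718), with the days well apart. Fgfbp1, a carrier of secreted FGFs, read 1.8, 8.0 and 2.7 on GD12, under the filter, and 36.6, 27.9 and 32.7 on GD14 (adjusted p = 0.00277). Of 12 tested hedgehog genes Ihh alone rose and 0 fell, while Shh read 55.8, 43.9 and 67.0 on GD12 and 23.1, 58.8 and 48.2 on GD14, values that overlapped (adjusted p = 0.732).

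Retinoid enzymes changed in both directions. Retinoic acid, a morphogen made from vitamin A by aldehyde dehydrogenases, patterns the face and its nerves. Aldh1a1 read 11.3, 14.0 and 12.0 on GD12 and 229, 185 and 204 on GD14, with 75.6, 72.2 and 65.5 on GD13, a 13.5-fold rise (log2 3.76 ± 0.15 SE, adjusted p = 1.64e-05). The 3 days did not overlap on this probe set, but a second probe set of Aldh1a1 differed by -0.17 (adjusted p = 0.865). Aldh1a2, the main retinoic acid enzyme of the early embryo, fell 1.90-fold, from 128, 112 and 134 to 70.5, 59.0 and 63.0 (adjusted p = 0.0121). Its call ended without the first GD12 (0.0521) or second GD14 array (0.0511). Rbp4, the plasma carrier of retinol, rose 4.90-fold (adjusted p = 0.0173), Aldh1a7 3.02-fold (adjusted p = 0.0177) and Adh1, an alcohol dehydrogenase, 1.97-fold (adjusted p = 0.0273). In all 4 of 19 tested retinoid genes rose and 1 fell, and the count of rises was 1 without the first GD14 array and 2 without the second GD12 or second GD14 array. Adjusted p-values reached 0.0683 for Rbp4, lost without the first or second GD14 array. They reached 0.0765 for Aldh1a7, lost without those or the second GD12 array, and 0.0931 for Adh1, lost without the second or the third GD12 or the first or the third GD14 array.

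The lists of growth factor, Notch and imprinted genes held 1 or 2 calls each. Of receptor tyrosine kinase growth factor and Notch genes 4% and 4.76% rose, near the 3.61% of all genes. Of IGF axis genes 15.4% rose, and of imprinted genes 5.26% rose and 5.26% fell. Igfbp3, which binds insulin-like growth factors, rose 2.29-fold (334 ± 26.5 to 783 ± 175, SD, n = 3 each, adjusted p = 0.0124), and its call ended without the first GD14 array (0.0575), while a second probe set differed by 0.65 without passing (adjusted p = 0.558). With Htra1 it was 1 of 2 rises among 13 tested genes of the IGF axis. Dlk1, an imprinted Notch-like protein, rose 2.22-fold, from 1245, 1192 and 1009 to 3085, 2789 and 1910 (adjusted p = 0.0140), and was lost without the first (0.0622) or second (0.0588) GD14 array. Nnat, neuronatin, an imprinted membrane protein of brain and endocrine tissue, read 1591, 1519 and 1104 on GD12 and 418, 376 and 405 on GD14, with 1104, 1088 and 626 on GD13. It fell 3.45-fold (log2 -1.79 ± 0.25 SE, adjusted p = 0.00505), with all GD14 values under those of GD12 and GD13. Gas6, a ligand of TAM receptor tyrosine kinases, rose 2.41-fold (adjusted p = 0.00295) and was the 1 call among 25 tested receptor tyrosine kinase growth factor genes, where 2 rose without the second GD12 or the third GD14 array. Dlk1 was the 1 call among 21 tested Notch genes, and Dlk1 and Nnat were those among 19 tested imprinted growth genes.

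A few transcription factors changed, in both directions. Sox11, a factor of neural and mesenchymal progenitors, read 2239, 2397 and 2215 on GD12 and 711, 751 and 967 on GD14. All its GD14 values were well under its GD12 values (2.84-fold lower, log2 -1.51 ± 0.16 SE, adjusted p = 0.00142), and a dimmer probe set fell 3.25-fold (adjusted p = 0.00353). Tbx3, a T-box factor, fell 2.56-fold, from 41.1, 59.1 and 55.6 to 22.1, 14.0 and 19.3 (adjusted p = 0.00876). Foxc2, a forkhead factor of mesenchyme, fell 1.79-fold (adjusted p = 0.0235), while Foxa1, of endodermal and glandular epithelium, and Foxj1, of ciliated cells, rose 3.02-fold and 3.14-fold (adjusted p = 0.0141 and 0.0129). These were the 2 rises and 3 falls of 28 tested Sox, forkhead, T-box and Irx factors, and 5 fell with the replicate block. Tbx2 passed on a dimmer probe set (log2 -0.74, adjusted p = 0.0235) but not on its brightest (log2 -0.57, adjusted p = 0.244). The count of rises was 0 without the first or second GD14 array and 1 without the first GD12 array. Foxc2 was lost without the first or second GD12 array or the second or the third GD14 array (0.0554 to 0.0837), Foxa1 without the first array of either day or the second GD14 array (0.0583 to 0.0646), and Foxj1 without the first (0.0622) or second (0.0508) GD14 array.

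Rises among homeobox genes of the face (3.03%) were near the share over all genes (3.61%), and 3.03% fell, beside 0.976%. Msx1, a homeobox factor of facial mesenchyme and tooth buds whose loss causes cleft palate in mice, read 1120, 1366 and 950 on GD12 and 550, 635 and 565 on GD14. The days were apart (1.94-fold lower, adjusted p = 0.0142), and the call ended without the first GD12 (0.0547) or first GD14 array (0.0673). Dlx3, a homeobox factor of epithelium and bone, rose 2.96-fold, from 82.1, 47.9 and 47.4 to 186, 183 and 158 (adjusted p = 0.00735). They were the 1 fall and 1 rise of 33 tested facial homeobox genes (median -0.18), where 3 fell with the replicate block or without the third array of every day, 2 without the third array of either day and 0 without the first. Pax9, which is needed for palate and teeth, read 46.1, 63.9 and 51.5 on GD12 and 25, 30.3 and 44.7 on GD14 (log2 -0.67 ± 0.23 SE, adjusted p = 0.164). Of 17 tested Hox genes 0 passed in limma, where 2 had an unadjusted p under 0.05 (median -0.16, between -0.34 and 0.12 over the alternatives). A dim probe set of Hoxd8 passed (log2 1.83, adjusted p = 0.00277), while the brightest one of Hoxd8 did not (log2 0.38, adjusted p = 0.450). Of the mesenchymal zinc finger and helix-loop-helix factors, Ebf2 and Ebf3 fell 2.14-fold and 2.16-fold (adjusted p = 0.0256 and 0.0233), and each lost its call without 3 or more of the arrays. Ebf3 was lost without any 1 GD12 array (0.0565 to 0.0777), and Ebf2 without the first or second GD12 or the first or the third GD14 array (0.0664 to 0.0921). A second probe set of Ebf3 fell further (log2 -1.42, adjusted p = 0.00313). Of 53 tested genes whose mouse mutants have cleft palate, 2 rose (Tgfb3 and Col11a1) and 2 fell (Msx1 and Tbx3), and the median was -0.22. Falls among them numbered 1 without the first GD12 or first GD14 array, 4 without the third GD14 array and 4 with the replicate block.

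Of 13 tested progenitor and oncofetal genes 3 fell and 0 rose, while 8 had a log2 difference below 0 and 5 above (median -0.27). Within replicate numbers 1, 2 and 3 the median was -0.74, 0.10 and -0.14. Hmga2, an architectural chromatin protein of dividing embryonic cells, read 1245, 924 and 1184 on GD12 and 187, 176 and 285 on GD14, with 406, 302 and 621 on GD13. The days did not overlap, and the fall over both was 5.19-fold (log2 -2.38 ± 0.29 SE, adjusted p = 0.00289). Mycn, a growth-promoting MYC factor, fell 1.65-fold (155 ± 20.4 to 92.2 ± 5.81, SD, n = 3 each, adjusted p = 0.0496), and kept its call only without the third GD12 array (0.0949 to 0.161 without each of the others). Sox11 was the other member that fell.

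Cell division genes had small differences, mostly below 0, that seldom passed one by one. Of 43 tested genes of mitosis 3 fell and 0 rose, and 40 had a log2 difference below 0 (median -0.41). The median was -0.47, -0.35 and -0.51 within replicate numbers 1, 2 and 3, and 8 members fell with the replicate block. Falls numbered 0 without the first array of either day or the second GD14 array, and 1 without the second GD12 array. Stmn1, stathmin, which destabilizes microtubules, read 4821, 4365 and 4581 on GD12 and 2678, 2327 and 2780 on GD14 (1.77-fold lower, adjusted p = 0.0139), without overlap. Ncaph, a condensin subunit, and Kif2c, a mitotic kinesin, fell 1.77-fold and 1.58-fold (adjusted p = 0.0190 and 0.0438), and a dimmer probe set of Ncaph differed by 0.28 (adjusted p = 0.769). The calls of Stmn1 and Ncaph ended without the first GD12, first GD14 or second GD14 array, that of Ncaph also without the second GD12 array (0.0546 to 0.0688 for both), and that of Kif2c without any 1 of the arrays (0.0677 to 0.154). Of 50 tested genes of DNA replication 2 fell and 0 rose (median -0.26), and 0 fell without the third array of every day. They were Rrm2, a subunit of ribonucleotide reductase (1.69-fold, adjusted p = 0.0355), and Uhrf1, which maintains DNA methylation (1.55-fold, adjusted p = 0.0494). The list had 0 falls without the first or second array of either day and 1 without the third GD12 array. Both calls held only without the third GD14 array (0.065 to 0.151 without each of the others), and Uhrf1 did not pass with the block (0.0504).

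Inhibitors of the cell cycle included 4 rises and 0 falls among 31 tested, and 8 rises with the replicate block. Cdkn1a, the cyclin-dependent kinase inhibitor p21, read 78.1, 66.4 and 45.0 on GD12 and 227, 224 and 183 on GD14 (3.30-fold, log2 1.72 ± 0.21 SE, adjusted p = 0.00274). A second probe set of Cdkn1a also rose (log2 1.90, adjusted p = 0.0233), and its GD12 and GD14 values on the first did not overlap. Ndrg1, a differentiation and hypoxia response gene, rose 2.60-fold, from 104, 109 and 116 to 294, 338 and 242 (adjusted p = 0.00264). Gadd45b, a growth arrest and stress gene, rose 2.44-fold (adjusted p = 0.0477), and lost its call without any 1 of the arrays (0.0515 to 0.163).

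Lists of chromatin, splicing and protein turnover genes had medians below 0. Of 53 tested chromatin genes 3 fell, 0 rose and 44 had a log2 difference below 0 (median -0.36). The falls numbered 1 without the first array of either day, 0 without the second GD14 array and 5 without the third GD14 array. Cbx5, heterochromatin protein 1 alpha, passed on a dimmer probe set (log2 -1.10, adjusted p = 0.00976) but not on its brightest (log2 -0.39, adjusted p = 0.283). Cbx2, of the Polycomb repressive complex, fell 1.98-fold, from 326, 318 and 296 to 195, 136 and 144 (adjusted p = 0.0138). Dnmt3a, a DNA methyltransferase of development, fell 2.34-fold (adjusted p = 0.0317), and Hmgb3, a chromatin protein of proliferating cells, 1.86-fold (adjusted p = 0.0157). Cbx2 was lost without the first GD12 (0.0582) or second GD14 array (0.0563), Hmgb3 without the first (0.0516) or second (0.0617) GD14 array, and Dnmt3a without any array but the third GD14 array (0.0642 to 0.122). Of 48 tested splicing genes 1 fell, and 44 were below 0 (median -0.28). It was Ptbp2, the splicing repressor of developing neurons, which read 345, 373 and 354 on GD12 and 227, 162 and 175 on GD14 (1.91-fold, adjusted p = 0.0185), and was lost without any 1 GD12 array or the second GD14 array (0.0527 to 0.0697). Splicing gene falls numbered 0 without the first or second GD12 array or the second GD14 array, 3 without the third GD14 array and 2 with the block. Of 44 tested proteasome and ubiquitin genes 1 fell, Psmc1, an ATPase of the proteasome (1.65-fold, adjusted p = 0.0389), which held only without the third GD14 array (0.0609 to 0.128 without each of the others). Of 27 tested ribosomal protein genes 0 passed in limma, 0 had an unadjusted p under 0.05 and 24 were below 0, with medians of -0.30, -0.37 and 0.02 within replicate numbers 1, 2 and 3. Of 34 tested translation factors 0 passed in limma and 0 had an unadjusted p under 0.05 (median -0.15).

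Calcium-binding S100 proteins and annexins had 7 rises and 0 falls among 19 tested members, and the count was 7 without each array in turn. S100a6, of differentiating mesenchyme and epithelium, read 181, 170 and 140 on GD12 and 1056, 913 and 744 on GD14, with 522, 509 and 462 on GD13. The 3 days did not overlap, and the rise was 5.43-fold (log2 2.44 ± 0.18 SE, adjusted p = 0.000215). Anxa1, annexin A1, a membrane-binding protein of epithelia and leukocytes, read 368, 395 and 335 on GD12 and 1595, 1491 and 1312 on GD14 (3.98-fold, adjusted p = 0.000676), and 2 other probe sets of Anxa1 rose too (log2 1.8 and 2.17, adjusted p = 0.00107 and 0.00423). S100a4, of motile mesenchymal cells, rose 3.05-fold (adjusted p = 0.00148), and S100a1, of muscle, and S100a13 rose 3.77-fold and 2.19-fold (adjusted p = 0.00673 and 0.0056). Of S100a1, 2 other probe sets, too dim to test, differed by -0.52 and -0.55, and of S100a13, 2 tested ones by 0.48 and 1.35 without passing (adjusted p = 0.116 and 0.187). The median log2 difference of the list was 0.72, and 18 of 19 members lay above 0.

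Stress response genes rose in part. Of 39 tested members 8 rose and 0 fell (median 0.33), and the count was 3 to 5 without the first, second or the third GD12 array or the first or second GD14 array. Cebpb, a transcription factor of differentiation and acute response, read 71.0, 60.0 and 58.6 on GD12 and 237, 229 and 288 on GD14 (3.84-fold, adjusted p = 0.000787), with the days well apart. Its relative Cebpd rose 2.42-fold (adjusted p = 0.00246), as did the metallothioneins Mt1 and Mt2, which bind zinc and copper, by 3.44-fold and 2.73-fold (adjusted p = 0.00159 and 0.0131). Nupr1, a stress-induced nuclear protein, read 2.9, 1.5 and 25.2 on GD12 and 108, 112 and 62.2 on GD14 (adjusted p = 0.0217). Mt2 was lost without the first GD12 array or the first or second GD14 array (0.0547 to 0.0622), and Nupr1 without the first or second array of either day (0.0631 to 0.0868). Of 34 tested chaperones 2 rose and 1 fell (median -0.02, between -0.15 and 0.03 over the alternatives), and 1 rose without any 1 array other than the third GD14 array, where 4 did. Hspa1b, an inducible heat shock protein, read 46.6, 46.0 and 45.1 on GD12 and 82.3, 86.6 and 78.5 on GD14 (1.75-fold, adjusted p = 0.0106). Cct3, a subunit of the cytosolic chaperonin, fell 1.99-fold (adjusted p = 0.0219), but dimmer probe sets of Cct3 differed by 0.02 and -0.34 without passing, and the call ended without the first or second array of either day (0.0677 to 0.092).

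Enzymes and transporters gave a few large rises from low levels. Cyp2f2, a cytochrome P450 of airway epithelium, read 10.1, 9.5 and 15 on GD12 and 84.1, 78.7 and 148 on GD14, with 59.1, 68.1 and 69.6 on GD13 (7.14-fold, log2 2.84 ± 0.26 SE, adjusted p = 0.000634). Its GD12 values lay about the filter intensity, and the 3 days did not overlap. Fmo1, a flavin monooxygenase, rose 3.79-fold (adjusted p = 0.0183) and was lost without the first or second array of either day (0.0597 to 0.0761). They were the 2 calls among 43 tested detoxification genes. Car3, a carbonic anhydrase of muscle and fat, rose 9.40-fold, from 10.4, 41.1 and 1.9 to 120, 157 and 120 (adjusted p = 0.0245), while Car14, a membrane carbonic anhydrase, fell 3.05-fold, from 102, 113 and 134 to 48.2, 20.2 and 46.7 (adjusted p = 0.0256). Car3 was lost without the first GD12 array or any GD14 array (0.0576 to 0.0844), and Car14 without any 1 GD12 array (0.0642 to 0.0895). Of 22 tested carbonic anhydrases, aquaporins and ion transport subunits 4 rose and 1 fell, and 1 rose without the first GD12, first GD14 or second GD14 array. Apod, apolipoprotein D, a lipid carrier of connective tissue, rose 2.84-fold, from 12.4, 13.8 and 11.6 to 38.9, 46.4 and 38.9 (adjusted p = 0.000918), as 1 of 4 rises among 35 tested lipid genes, of which 2 rose without the first GD12, first GD14 or second GD14 array. Lmna, lamin A of the nuclear envelope, rose 3.24-fold, from 571, 540 and 593 to 1647, 1498 and 2555 (adjusted p = 0.0084), and Tubb6, a tubulin, 2.51-fold (adjusted p = 0.00343). With Acta2 they were the 3 rises of 40 tested cytoskeletal genes, in which Stmn1 was the 1 fall, and 5 rose and 2 fell with the replicate block.

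**Figure D4:**
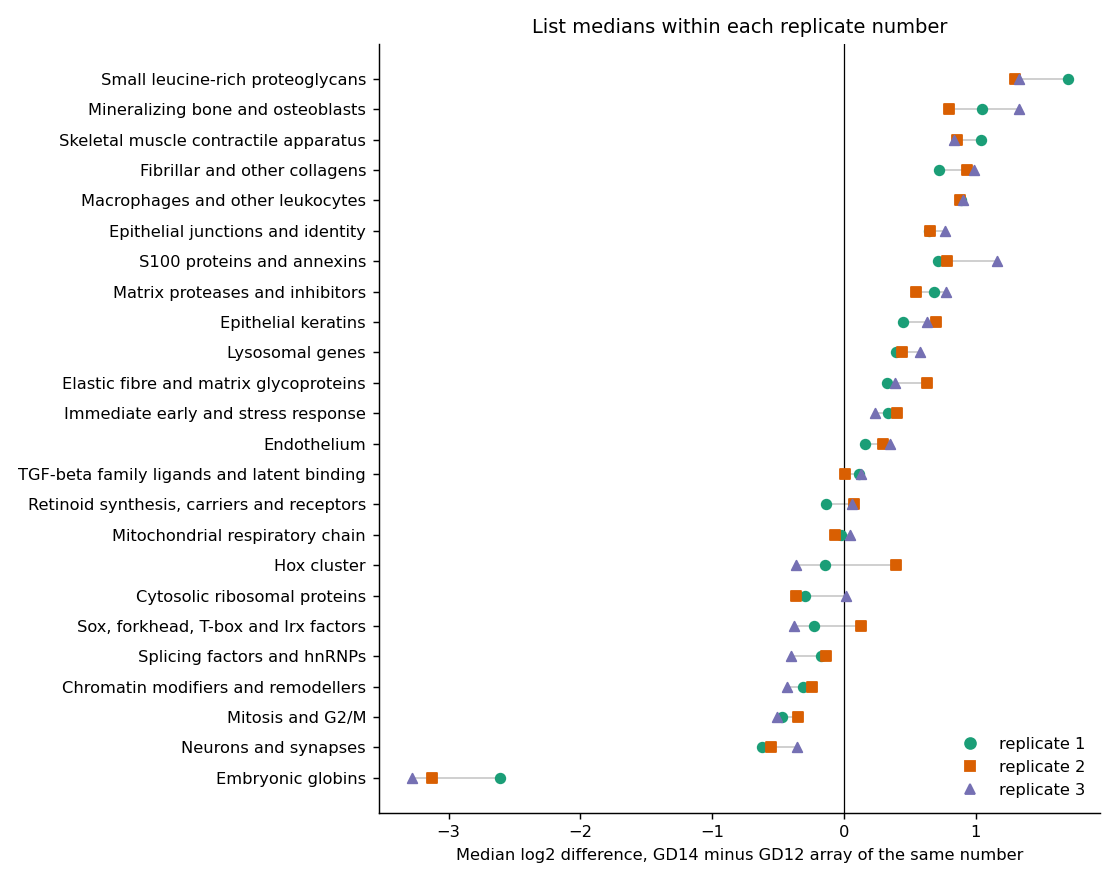
For 24 gene lists, symbols give the median log2 difference between the GD14 and the GD12 array of the same number (circle for replicate 1, square for 2, triangle for 3). The bone, matrix, muscle, epithelial and macrophage lists lie above 0 in all 3 replicate numbers and the mitosis, chromatin, splicing, neuronal and embryonic globin lists below 0, while the Hox, retinoid, ribosomal, respiratory chain and Sox lists fall on both sides.

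Of 33 tested integrins and cadherins, which hold cells to matrix and to each other, 0 passed in limma, where 5 had an unadjusted p under 0.05. Several of the largest changes belonged to no list. C1qtnf3, a secreted C1q and TNF related protein of cartilage and fat, read 6.6, 23.1 and 9.1 on GD12 and 232, 227 and 105 on GD14 (12.4-fold, adjusted p = 0.00215). Clec11a, a growth factor of bone-forming stroma, read 61.0, 68.6 and 57.7 on GD12 and 378, 352 and 393 on GD14 (5.77-fold, log2 2.53 ± 0.14 SE, adjusted p = 6.35e-05). Neither overlapped between the days, which was a condition for naming the largest changes. Kazald1, a secreted protein related to the IGF binding proteins, rose 6.06-fold (adjusted p = 0.00215). Rprm, a cell cycle arrest gene, fell 2.76-fold (adjusted p = 0.0421), from 50.3, 71.7 and 33.8 to 24.9, 10 and 16.2, and lost its call without the first or second GD12 array or the second or the third GD14 array (0.0847 to 0.118).

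Values on GD13 show how the change was spread over the 2 days. For 287 of the 302 probe sets that rose the GD13 mean lay between those of GD12 and GD14, and for 93 of the 99 that fell. The median share of the log2 difference reached by GD13 was 59.5% for those that rose (quartiles 43.4% and 73.6%) and 63.6% for those that fell (47.9% and 78.0%). These shares use the arrays that chose the probe sets and are a description. In limma 0 of 9326 probe sets passed for a difference between the second daily step and the first, where 453 had an unadjusted p under 0.05 and the smallest adjusted p was 0.135. The count was 2 with the filter at the median or with trended and robust variances, and 1 with array weights or the replicate block. That smallest value was for Krt17, which read 440, 402 and 479 on GD13 and had reached its GD14 level by then. Ibsp (adjusted p = 0.200) had GD13 values of 1353, 1287 and 898, and Clec11a (0.231) had 261, 266 and 302. Acta1, at 129, 128 and 217 on GD13, and Col1a1, at 1657, 1563 and 2278, were among the genes with more of their rise on the second day.

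**Figure D5:**
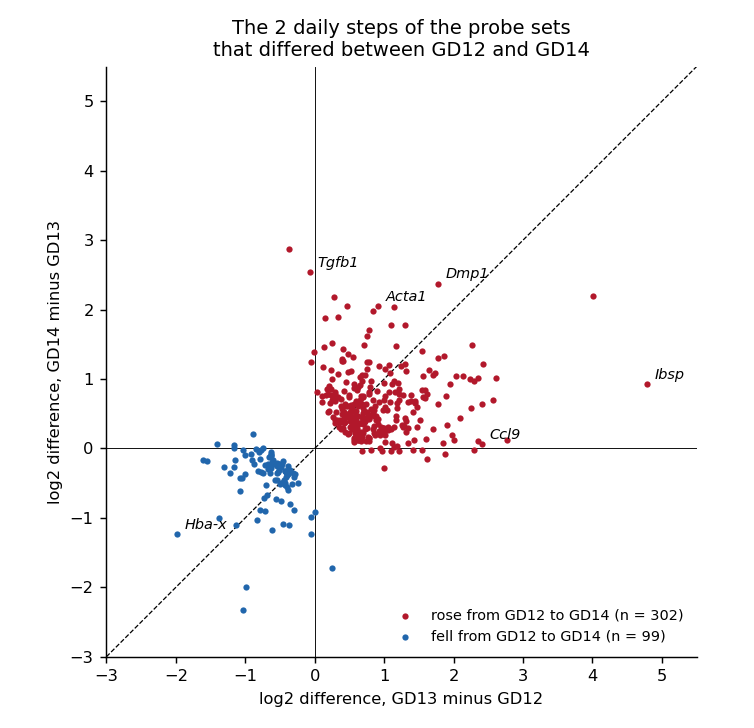
Each point is 1 of the 401 probe sets that differed between GD12 and GD14, with its log2 difference GD13 minus GD12 against GD14 minus GD13, red for the 302 that rose and blue for the 99 that fell, and the dashed line marks equal steps. Points below the line among risers, such as Ibsp and Ccl9, had the larger step first, and those above it, such as Acta1 and Tgfb1, had it second.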

How the data were processed

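RNA of orofacial tissue was measured on 9 arrays, 3 for each of GD12, GD13 and GD14. The authors deposited a table of 1 linear intensity per probe set and array, whose software is not given in the sources used here. Trimmed of 2% of its probe sets at each end, every array had a mean intensity of 150.1, so the deposited intensities were already scaled. Such scaling sets the bulk of genes equal between days, and changes are relative to it. The number of arrays limits the precision.

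Probe sets that were controls (66 of 12488) were left out, and those with a mean log2 level under the 25th percentile (an intensity of 10.4) were not tested. Of the 12422 others, 10833 had 1 gene symbol in the platform annotation, 396 several and 1193 none, and no gene was named from the last 2 kinds. The log2 of the intensity plus 3 was fitted with limma 3.58.1 in R 4.3.3 (lmFit and eBayes, group means over all 9 arrays), with Benjamini-Hochberg adjustment over the 9326 tested probe sets and a threshold of 0.05. Fold changes are on this scale, which understates the change of dim genes, and no fold is given where a day's mean lay under 10.4. In gene lists each gene stood by its brightest tested probe set. Tables were handled in Python 3.11.15 with numpy 2.4.6 and pandas 2.3.3, and the fit was tested on simulated data.

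Most named genes come from a set drawn by a rule, of which not all are described. The rule took the 15 largest rises and falls that passed without overlap, with a mean above 10.4 on both days. It also took up to 6 passing members of each list and direction and up to 8 probe sets for uneven steps. A few facial and globin genes were taken whatever their values. The gene lists and the comparison were chosen with earlier results of these data known. Replicate numbers come from the labels. Residuals of same-numbered arrays correlated at 0.189 to 0.419 and those of other arrays at -0.287 to -0.0171, so the numbers were taken to pair the samples, as a replicate block in an alternative fit. Other alternatives changed the scaling, the added value, the filter, the variance model, array weights and the arrays used.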

Additional observations from a re-analysis of the deposited data

How the results depend on the processing

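As reported, 401 probe sets passed, 302 higher and 99 lower. The count was 615 with array weights, 620 with the replicate block and 227 with only the 6 arrays of GD12 and GD14. Higher calls numbered 198 with those 6 arrays. Lower calls numbered 152 with the filter at the median, 154 with trended and robust variances, 177 with array weights, 193 with the block and 29 with the 6 arrays. Leaving out 1 array gave 176 to 392 calls, 145 to 292 higher and 31 to 100 lower, and 167 to 305 at least 2-fold; the lowest counts were without the first GD14 array, where 174 of the 401 were among the 176. Fewer arrays give less power by construction, and the cause of the other shifts was not tested. Quantile normalization, median scaling, other added values, no filter and the actin ratio as a covariate gave 325 to 466 calls. The second daily step differed from the first for 2 probe sets with the filter at the median, 2 with trended and robust variances, 1 with array weights and 1 with the block. Of the 401 calls 387 passed with the block, which ended those of Aldoc, Dkk2, Klf4, Myt1, Ppp1r17, Rspo2 and Uhrf1 and of no other gene named. Of the values for named genes under the alternatives, 2610 kept their direction and side of the threshold, 514 lost their call and 1 turned: Hba-a1, which had passed in no fit, ranged from -0.053 to 0.20 with 1 array left out (log2), below 0 without the third GD14 array. Probes near the filter intensity are limited by signal over background.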

Other observations

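The genes here were chosen after their values were seen. Genes of caveolae, the small pits of the cell membrane, were among those that rose. Cav1, caveolin 1, read 120, 113 and 112 on GD12 and 578, 505 and 477 on GD14 (log2 2.14 ± 0.14 SE, adjusted p = 0.000106 in limma), but a dimmer probe set of Cav1 differed by 0.37 (adjusted p = 0.551). The coat proteins Cavin1 and Cavin3 differed by 1.12 and 1.74 (adjusted p = 0.00425 and 0.00209), and a dimmer probe set of Cavin1 by 0.21 (adjusted p = 0.879). Cav3, the caveolin of muscle, differed by 2.20 and 1.99 on its 2 probe sets (adjusted p = 0.0126 and 0.0172).

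Prolyl isomerases of the endoplasmic reticulum, some of which help collagen to fold, included Fkbp11, which read 78.3, 69.7 and 84.8 on GD12 and 301, 315 and 318 on GD14 (log2 1.97, adjusted p = 0.000197). Fkbp7 differed by 1.22 (adjusted p = 0.00423).

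The largest rise among all tested probe sets was on a probe set to which the annotation used here gives no gene. It read 24.5, 11.3 and 15.7 on GD12 and 1850, 1663 and 940 on GD14, with 413, 370 and 193 on the day between (log2 6.20 ± 0.38 SE, adjusted p = 8.43e-05).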
